A study of Homo sapiens with 32 samples.

Results

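The 8 genes of the cytosolic chaperonin TRiC, also called CCT, were followed in HEK293 cells incubated with 4-thiouracil. They were taken by symbol from a table of 32738 gene entries: TCP1, CCT2, CCT3, CCT4, CCT5, CCT6A, CCT7 and CCT8. All 8 had enough counts to be tested, among 10439 genes tested in all. HEK293 is a human cell line that was derived from embryonic kidney, and 4-thiouracil is uracil with a sulphur atom in it. Whether these cells built it into new RNA, which would make that RNA thiolated, was not tested. Cells were incubated for 0, 5, 15 or 30 min, with no other treatment named in the labels, and each time had 2 biological replicates, called cultures below. A culture was read as 2 cDNA preparations of 2 libraries each, which gave 32 libraries. The labels name polyA RNA. They do not say whether thiolated RNA was purified, or what was given to the cells at 0 min.

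TRiC is a barrel of a pair of stacked rings, and each ring holds 1 copy of each of the 8 subunits in a fixed order. Newly made actin, tubulin and some proteins with WD40 repeats enter the barrel and fold inside it as the subunits bind and hydrolyse ATP. Prefoldin, a separate complex of 6 proteins, hands unfolded actin and tubulin to TRiC, and phosducin-like proteins assist it with some clients. The subunits are abundant proteins in dividing cells.

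The data behind each value were as follows. Total counts per library were 188686 to 381471, and summed over the 4 libraries of a culture 776871 to 1396056. The 8 subunits together had 2435 to 8038 counts per culture. Levels are CPM, counts per 1000000 counts of the culture, scaled with TMM, a method that sets aside genes with extreme ratios between samples. TMM factors were 1.10 to 1.23 in the 6 later cultures but 0.637 and 0.684 at 0 min, so scaling bears on every comparison with 0 min. Of the 6 HEK293 markers, 5 were found in every culture and PAX2 had 5 counts in all. Their summed level was 273 to 398 CPM of the total, most of it from VIM (2814 counts over all cultures, then GATA3 with 215). KRT18, NEFM and GATA3 had as few as 3, 2 and 3 counts in a culture. PTPRC, HBB, CD3E, ALB, COL1A2 and DCN, which mark blood, liver and fibroblasts, had 0 counts in all 8 cultures. Less RNA of a gene, fewer cells holding it and another pool of RNA being counted cannot be told apart here.

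The promoters of 4 subunits are shown because CCT8 and CCT7 fell most at 5 min, CCT4 fell least, and the stretch of TCP1 holds a match to CCAAT, a motif searched for below. Each is the longest stretch, within the 250 bases before the RefSeq start of the gene (GRCh38.p14), that is covered by no exon of GENCODE release 29. Strands are those of the gene, read 5′ to 3′: CCT8 at chr21:29073798-29073898 (minus strand), CCT7 at chr2:73234058-73234235 (plus strand), TCP1 at chr6:159789750-159789811 (minus strand) and CCT4 at chr2:61888843-61888906 (minus strand). Capitals mark matches to the motifs named below.
CCT8: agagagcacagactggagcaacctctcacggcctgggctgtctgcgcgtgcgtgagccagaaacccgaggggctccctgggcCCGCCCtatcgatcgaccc
CCT7: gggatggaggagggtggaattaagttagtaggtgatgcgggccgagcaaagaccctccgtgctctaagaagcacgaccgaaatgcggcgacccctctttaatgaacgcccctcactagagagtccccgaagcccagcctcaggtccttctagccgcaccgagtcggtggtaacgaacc
TCP1: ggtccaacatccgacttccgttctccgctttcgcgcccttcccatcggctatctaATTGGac
CCT4: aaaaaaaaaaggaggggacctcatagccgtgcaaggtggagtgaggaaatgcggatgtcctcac

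RefSeq held a promoter entry for 7 of the 8 subunits, all but CCT6A, and motifs were searched on both strands of the full 250 bases of the first entry of each gene. CCAAT, the element bound by the factor NF-Y, was found in 4 of 7 windows (TCP1, CCT2, CCT3 and CCT8), and in 33% of 27305 human promoters. GGGCGG, the core of an Sp1 element, was found in the same 4 genes and in 42.3% of promoters. GAANNTTC, the head-to-head pair of the units that heat shock factors bind, was found in TCP1 only among these first entries (5.85% of promoters; the match lies outside the stretch printed above), and TTCNNGAA, the tail-to-tail pair, in 0 of 7 (6.72%). CCGGAAG, an ETS element, was found in CCT2 only (8.82%) and TATAAA in 0 of 7 (11.1%). No 2 matches overlapped. CCT2 and CCT4 have a second RefSeq entry; that of CCT2 held 1 match to GAANNTTC and 2 to GGGCGG, and that of CCT4 none. CCT4, CCT5 and CCT7 had no match to any of the 6 motifs. For CCT5 the window lies after the start that GENCODE gives and so covers transcribed sequence.

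After incubation the subunits together stood at a smaller share of the counts than at 0 min. They took 0.660% and 0.694% of all counts in the 2 cultures at 0 min; the pairs were 0.313% and 0.318% (5 min), 0.306% and 0.348% (15 min), and 0.300% and 0.302% (30 min). On the TMM scale the summed level was 10338 ± 880 CPM (0 min), 2896 ± 32.3 (5 min), 2929 ± 391 (15 min) and 2507 ± 17.9 (30 min; SD, n = 2 cultures each). The drop was in place at the first time sampled. The summed levels at 5 and 15 min overlapped between cultures, and both at 30 min were lower. At every subunit the 6 later cultures lay below both cultures at 0 min on the TMM scale.

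Studies in yeast divide the ring into a side that binds ATP strongly, made of TCP1, CCT2, CCT4 and CCT5, and a side that binds it weakly, made of CCT3, CCT6A (CCT6 in yeast), CCT7 and CCT8. The genes are described in that order. TCP1, the alpha subunit that gave the complex its name, had 903 and 1056 CPM (0 min), 304 and 283 (5 min), 257 and 294 (15 min), and 237 and 224 (30 min). Both 30 min cultures were the lowest of the 8. CCT2, the beta subunit, had 1071 and 1192 CPM (0 min), 295 and 301 (5 min), 303 and 349 (15 min), and 283 and 274 (30 min). CCT5, the epsilon subunit, had 1476 and 1823 CPM (0 min), 402 and 420 (5 min), 402 and 497 (15 min), and 380 and 369 (30 min). CCT5 is the subunit in which human mutations cause a sensory neuropathy. For CCT2 and CCT5 the gap between 0 min and the later times was wide and the later times lay close together, with 1 of the 15 min cultures the highest among them. CCT4, the delta subunit, had 346 and 352 CPM (0 min), 269 and 230 (5 min), 206 and 221 (15 min), and 253 and 266 (30 min). Its cultures at 0 min were still the highest of the 8, but the step down was small, and both 15 min cultures were the lowest.

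On the weak side, CCT3, the gamma subunit, had 2026 and 2132 CPM (0 min), 661 and 744 (5 min), 667 and 760 (15 min), and 625 and 615 (30 min). CCT8, the theta subunit, had 2138 and 2243 CPM (0 min), 427 and 413 (5 min), 373 and 516 (15 min), and 332 and 340 (30 min). In both genes the 2 cultures at 30 min were the lowest of the 8, and the cultures at 5 and 15 min overlapped. CCT7, the eta subunit, had 1357 and 1705 CPM (0 min), 341 and 357 (5 min), 289 and 412 (15 min), and 235 and 245 (30 min). Its 15 min cultures lay far apart, and both 30 min cultures were below all others. CCT6A, the zeta subunit, whose relative CCT6B is used mainly in testis, had 399 and 457 CPM (0 min), 173 and 171 (5 min), 156 and 157 (15 min), and 175 and 160 (30 min). Its 6 later cultures lay within 156 and 175 CPM, and both 15 min cultures were the lowest.

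**Figure D1:**
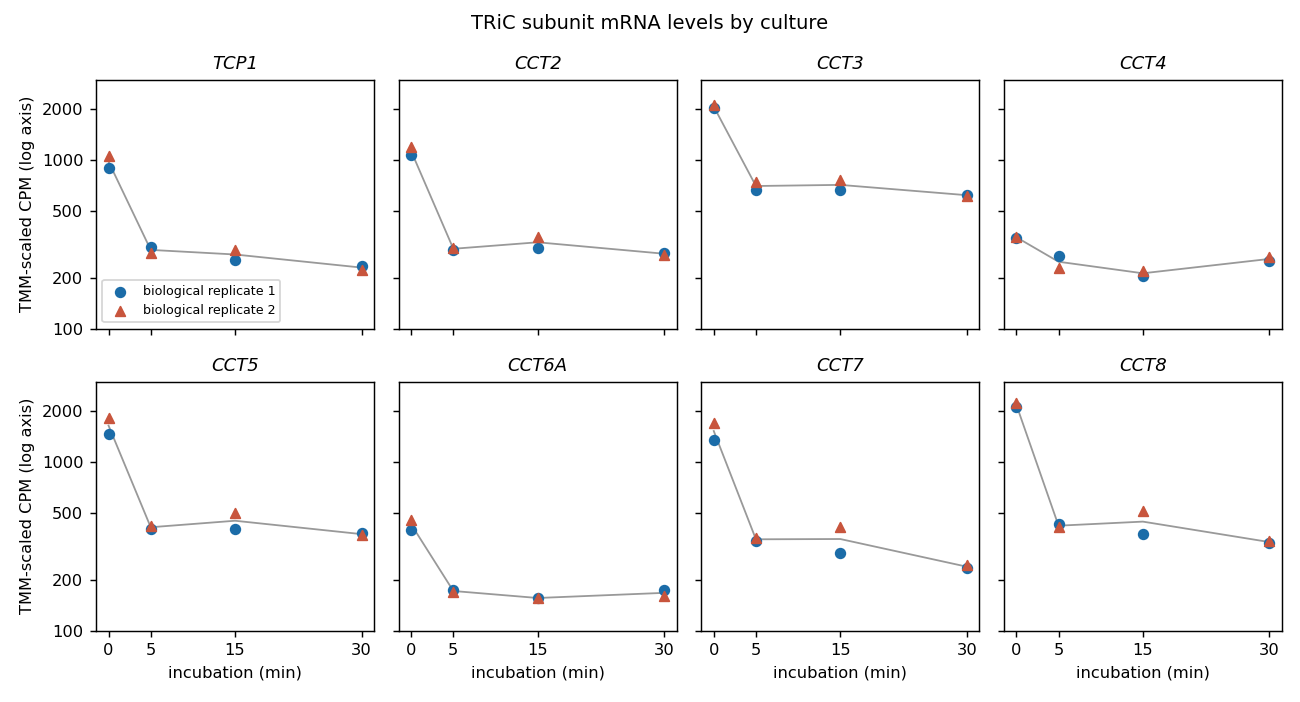
TMM-scaled CPM (log axis) of each TRiC subunit against minutes of incubation; each point is 1 culture and the grey line joins the means of the 2 cultures at each time. All subunits are lower at 5, 15 and 30 min than at 0 min on this scale; CCT8 stands at 332 and 340 CPM at 30 min, against 2138 and 2243 CPM at 0 min, and CCT4 has the smallest step.

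Levels of different subunits were compared per kilobase of coding sequence, which is 1593 to 1668 bases in all 8; whether the counts of this protocol scale with transcript length is not stated by the labels. At 30 min the order was CCT3 (379 ± 4.25 CPM per kilobase, SD, n = 2), CCT5 (231 ± 4.39), CCT8 (204 ± 3.38), CCT2 (174 ± 3.82), CCT4 (160 ± 5.31), CCT7 (147 ± 4.54), TCP1 (138 ± 5.19) and CCT6A (105 ± 6.62), and no 2 neighbours overlapped between the 2 cultures. At 0 min the order ran from CCT8 (1332 ± 45.0 CPM per kilobase) through CCT3 (1271 ± 45.8), CCT5 (1016 ± 151), CCT7 (940 ± 151), CCT2 (705 ± 53.6), TCP1 (587 ± 65.1) and CCT6A (269 ± 25.9) to CCT4 (216 ± 2.84). CCT8 and CCT3 overlapped between cultures, as did CCT5 and CCT7; the other neighbours in the order did not. CCT8 thus stood at rank 3 at 30 min and rank 1 at 0 min, and CCT4 at rank 5 at 30 min and rank 8 at 0 min. Per kilobase of the whole transcript CCT5, whose main transcript is the longest (3675 bases), stood at rank 6 in place of rank 2 at 30 min, where it overlapped with CCT4 (102 ± 1.94 CPM per kilobase in CCT5 and 103 ± 3.41 in CCT4), and at rank 5 in place of rank 3 at 0 min.

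With TMM scaling each of the 8 subunits fell after 5, 15 and 30 min relative to 0 min, and none rose (edgeR quasi-likelihood F test with TMM scaling, adjusted p under 0.05 over all genes tested). Of all genes tested, 26% were lower at 5 min, 24.6% at 15 min and 23.8% at 30 min, and 28.7%, 29.8% and 32.1% were higher. The median log2 fold change of the 8 was -1.83 (5 min), -1.81 (15 min) and -2.05 (30 min), where the median of all genes tested was 0.10, 0.19 and 0.35. These 3 comparisons share the 2 cultures at 0 min, so they are not independent of each other.

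CCT8 fell most at 5 min, by 5.21-fold (log2 fold change -2.38 ± 0.19 SE, adjusted p = 3.2e-12). CCT7 fell by 4.38-fold at 5 min (-2.13 ± 0.19) and CCT5 by 4.00-fold (-2.00 ± 0.19). CCT2, TCP1 and CCT3 followed at log2 fold changes of -1.92, -1.74 and -1.56, and CCT6A at -1.31 ± 0.18 (adjusted p = 1.37e-07). By size, the subunits on the weak ATP side thus held the 2 largest decreases and 2 of the 3 smallest. The log2 fold change of CCT8 at 5 min was lower than that of all but 2.29% of the genes tested, that of CCT3 than all but 13.3% and that of CCT4 than all but 37.4%. At 30 min CCT8 and CCT7 had log2 fold changes of -2.70 ± 0.19 and -2.67 ± 0.20, a 6.52-fold and a 6.37-fold decrease, with adjusted p of 2.34e-13 and 3.57e-13. TCP1, CCT5 and CCT2 lay at -2.09, -2.14 and -2.02 at 30 min, CCT3 at -1.75 and CCT6A at -1.35.

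**Figure D2:**
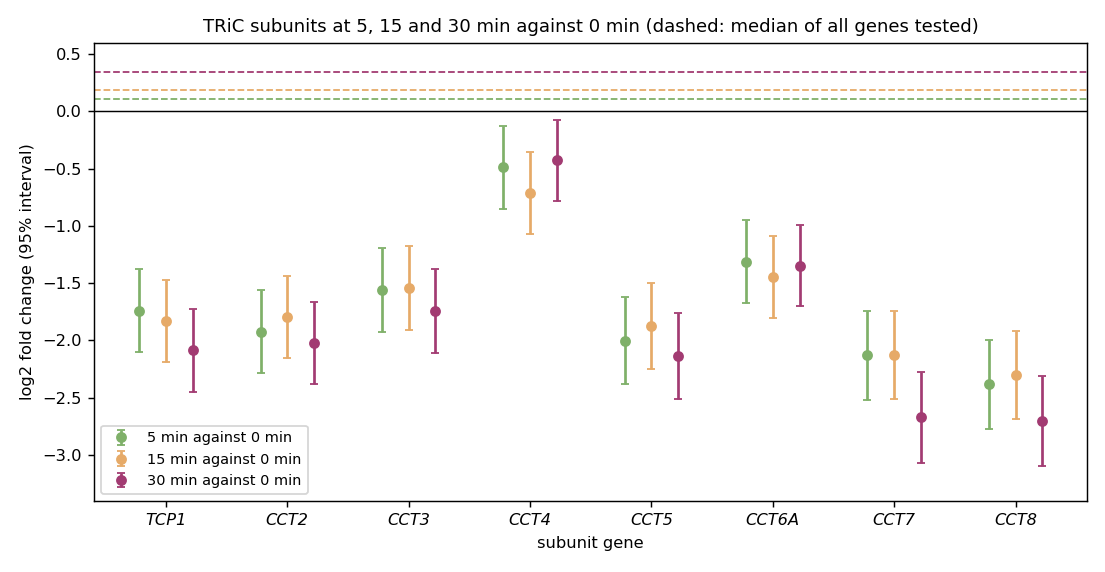
Log2 fold change of each TRiC subunit at 5, 15 and 30 min against 0 min (points) with 95% intervals from the edgeR fit (bars, n = 2 cultures per time); dashed lines give the median of all 10439 genes tested, 0.10, 0.19 and 0.35. CCT4 lies nearest to 0, CCT8 and CCT7 at 30 min lie lowest, at -2.70 and -2.67.

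CCT4 had the smallest decrease in all 3 comparisons. Its log2 fold change was -0.49 ± 0.18 (SE) at 5 min (adjusted p = 0.0192), -0.71 ± 0.18 at 15 min (adjusted p = 0.000863) and -0.43 ± 0.17 at 30 min (adjusted p = 0.0355), by edgeR's quasi-likelihood test with TMM scaling; with counts scaled to the library total alone the direction turned, to 0.25 at 5 min (adjusted p = 0.243), 0.07 at 15 min (adjusted p = 0.769) and 0.45 at 30 min, where it was called higher (adjusted p = 0.0209). In CPM of the total, CCT4 had 235 and 223 (0 min), 293 and 251 (5 min), 237 and 240 (15 min), and 302 and 322 (30 min). Whether CCT4 RNA is called lower or higher than at 0 min therefore depends on the scaling. The other 7 subunits were lower, and called, in all 378 values against 0 min (7 subunits, 3 comparisons, 18 alternatives). These values reuse the same cultures and are not independent checks. Total-count scaling moves all genes together: the median of all genes was then 0.83 at 5 min, 0.96 at 15 min and 1.22 at 30 min, with 13.9%, 12.5% and 12.8% of genes lower and 42.7%, 46.9% and 53.9% higher. CCT6A, the next smallest, kept its direction with total counts, with log2 fold changes of -0.57 (5 min), -0.67 (15 min) and -0.46 (30 min).

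The 2 cDNA preparations gave CCT4 at a ratio of 0.920 to 1.18 in the 6 later cultures, but differed more at 0 min. In culture 1 at 0 min the first preparation gave 254 and the second 207 CPM of the total (182 and 104 counts), and in culture 2 the first gave 292 and the second 138 CPM (165 and 63 counts), a ratio of 2.13. With only the first preparation CCT4 had log2 fold changes of -0.81 at 5 min and -0.57 at 30 min (adjusted p = 0.00377 and 0.0341); with only the second the values were 0.06 and 0.04 (adjusted p = 0.856 and 0.898), and -0.19 at 15 min (adjusted p = 0.513). The part of the preparation in the CCT4 result was not tested further. The call at 5 min was lost without culture 1 or 2 at 0 min or culture 2 at 5 min, and the call at 30 min in 7 of 8 fits that left out a culture, all but the one without culture 1 at 15 min; log2 fold changes in these left-out fits were -0.57 to -0.35 at 5 min and -0.43 to -0.36 at 30 min. Over the other 7 subunits the ratio of the preparations was 0.655 to 1.67, both extremes at 30 min, in CCT6A and CCT7. In culture 2 at 0 min, where CCT4 was at 2.13, CCT6A was at 0.662 and the remaining subunits at 1.06 to 1.15.

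**Figure D3:**
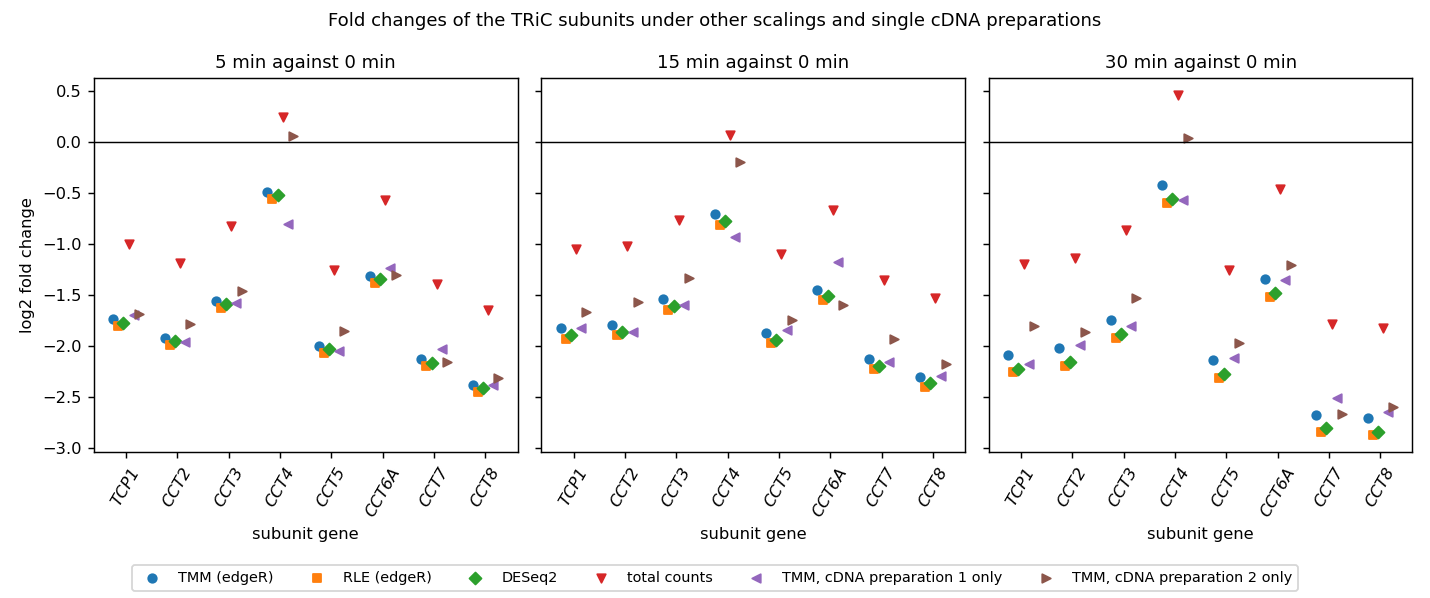
Log2 fold change of each TRiC subunit against 0 min at 5, 15 and 30 min (panels) under TMM, RLE, DESeq2 and total-count scaling and from a single cDNA preparation (markers). CCT4 crosses 0 with total counts, at 0.25, 0.07 and 0.45, and at 5 and 30 min with the second preparation alone; the other 7 subunits stay below 0 throughout.

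The share of each subunit within the summed TRiC counts does not depend on the scaling between cultures. CCT4 made up 3.39 ± 0.244% of the sum (0 min), 8.63 ± 1.04% (5 min), 7.32 ± 0.607% (15 min) and 10.4 ± 0.416% (30 min; SD, n = 2 each). CCT6A made up 4.14 ± 0.0466%, 5.95 ± 0.127%, 5.39 ± 0.716% and 6.70 ± 0.373% at 0, 5, 15 and 30 min, and CCT3 20.1 ± 0.992%, 24.2 ± 1.76%, 24.4 ± 0.992% and 24.7 ± 0.101%. The share of CCT8 was 21.2 ± 1.09% (0 min), 14.5 ± 0.501% (5 min), 15.1 ± 1.43% (15 min) and 13.4 ± 0.317% (30 min), and that of CCT7 14.8 ± 1.12%, 12.05 ± 0.25%, 11.9 ± 1.38% and 9.58 ± 0.364%. TCP1, CCT2 and CCT5 each stayed within 2 percentage points of their mean share at 0 min, at 9.19 to 10.1%, 10.3 to 11.1% and 14.2 to 15.9% over the 4 times. The make-up of the summed TRiC counts thus moved towards CCT4, CCT6A and CCT3 and away from CCT8 and CCT7. With 2 cultures a time, an exact permutation test of 1 share between 2 times cannot give a p below 0.333, and none is given.

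**Figure D4:**
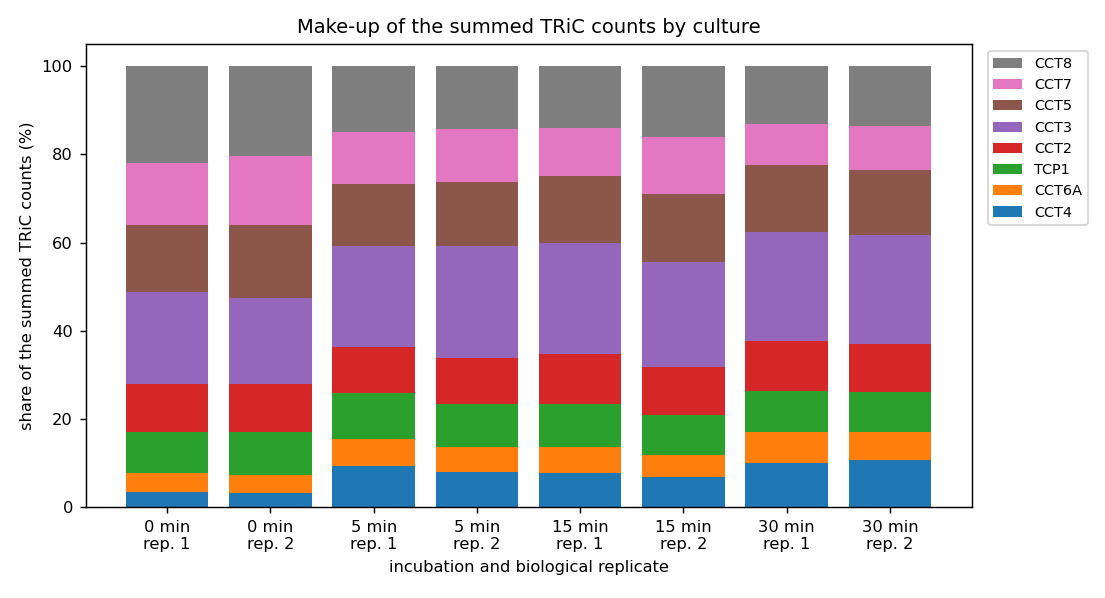
Share of each subunit (colours, percent) in the summed TRiC counts of each culture; bars are the 8 cultures in order of incubation. The band of CCT4 at the bottom is 10.4% of the sum on average at 30 min and 3.39% at 0 min, and the band of CCT8 at the top is 13.4% at 30 min and 21.2% at 0 min.

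Between the incubated times edgeR with TMM scaling on all cultures, the fit meant by edgeR in this paragraph, called none of the 8 subunits changed. DESeq2 called CCT7, CCT8 and TCP1 lower in 1 or 2 comparisons. With RLE scaling edgeR called CCT7 lower at 30 min against 5 min (-0.64, adjusted p = 0.0206), and other alternatives that changed calls are given at the end. At 15 min against 5 min 0 of 8 were called by edgeR (0.517% of all genes were lower and 1.03% higher), 0 had an unadjusted p under 0.05, and DESeq2 called 0. All 8 intervals of the difference lay within a 2-fold change, with bounds of -0.58 and 0.50 on the log2 scale over the 8. At 30 min against 15 min 0 of 8 were called by edgeR (2.78% of all genes lower, 2.26% higher), and 2 had an unadjusted p under 0.05: CCT7 at -0.54 (95% interval -0.93 to -0.16, adjusted p = 0.101) and CCT8 at -0.40 (-0.78 to -0.03, adjusted p = 0.262). DESeq2 called both of these lower (10.4% of the genes it tested were lower), at -0.62 and -0.47. At 30 min against 5 min 0 of 8 were called by edgeR (6.52% of all genes lower, 5.88% higher), and CCT7 alone had an unadjusted p under 0.05, at -0.54 (-0.93 to -0.15, adjusted p = 0.0606). DESeq2 called CCT7 and TCP1 lower there, at -0.64 and -0.45 (17.6% of the genes it tested were lower). The median of the 8 was 0.01 at 15 against 5 min, -0.24 at 30 against 15 min and -0.16 at 30 against 5 min, and that of all genes -0.00, -0.01 and -0.03.

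Genes that work with TRiC were read from lists. All 3 phosducin-like cofactors fell at 5, 15 and 30 min against 0 min (log2 fold changes of -1.49 for TXNDC9, -1.84 for PDCL3 and -1.78 for PDCL at 5 min). At these times 26%, 24.6% and 23.8% of all genes were lower. With total counts, where 13.9%, 12.5% and 12.8% of all genes were lower, 3, 3 and 2 of these cofactors were called lower. At 30 min against 5 min their log2 fold changes were -0.05, 0.06 and 0.38, and edgeR and DESeq2 called 0 of 3. Of the 6 prefoldin subunits 4 fell at 5 min and all 6 at 15 and 30 min, where 26%, 24.6% and 23.8% of all genes were lower at the 3 times. With total counts 2, 3 and 3 prefoldin subunits were called lower, and with DESeq2 4, 4 and 6. PFDN5 had log2 fold changes of -1.11 at 5 min and -1.99 at 30 min against 0 min, PFDN1 of -0.84 and -1.25, VBP1 of -1.72 and -2.10, and PFDN4 of -1.68 and -1.89. PFDN2 was not called at 5 min (-0.43, adjusted p = 0.129) and was called at 15 min (-0.58), where its sign turned with total counts, and PFDN6, with few counts, was not called at 5 min either (-1.81, adjusted p = 0.0559). PFDN5 and PFDN2 also fell at 30 min against 5 min, with log2 fold changes of -0.87 and -0.76. TBCA and TBCE, cofactors of beta and alpha tubulin, fell at 30 min against 5 min (-0.84 and -0.92). They were the 2 of 5 tubulin cofactors that fell then, where 6.52% of all genes were lower and 5.88% higher. The 1 that rose was TBCC (2.69, with no adjusted p from DESeq2), which is named after its values were seen.

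The genes of TRiC clients, mainly actins and tubulins, had 15 of 18 members tested. Of these, 11 fell at 5 min, 11 at 15 min and 10 at 30 min against 0 min, with 0 higher. Of all genes tested, 26%, 24.6% and 23.8% were lower at these times, and 28.7%, 29.8% and 32.1% higher. With total counts 9, 10 and 6 client genes were lower, and 1 was higher at 5 min and 2 at 30 min. With that scaling 13.9%, 12.5% and 12.8% of all genes were lower, and 42.7% were higher at 5 min and 53.9% at 30 min. ACTG1, cytoplasmic gamma actin, had 4852 ± 267 CPM (0 min), 847 ± 78.4 (5 min), 1353 ± 297 (15 min) and 3240 ± 359 (30 min; SD, n = 2). TUBA1B, an alpha tubulin, had 6291 ± 364, 1191 ± 17.6, 1524 ± 191 and 1838 ± 155 CPM at those times. At 30 min against 5 min 5 client genes rose and 0 fell by edgeR with TMM scaling (5.88% of all genes were higher), 3 rose with RLE (TUBA1B had adjusted p = 0.0597 there), 4 with DESeq2, which gave TUBB2A no adjusted p, and 6 with total counts. Among the 5 were ACTG1 at 1.94 ± 0.20 (SE, adjusted p = 1.2e-08) and TUBA1B at 0.63 ± 0.19 (adjusted p = 0.0257); the other 3, ACTB, TUBB and TUBB2A, are named after their values were seen. In the same comparison the 8 TRiC subunits had log2 fold changes of -0.54 to 0.06. Whether clients and subunits differed in this was not tested. ACTG1 and ACTB were called lower at 30 min against 0 min with TMM scaling (-0.58 and -0.53), and their sign turned with total counts.

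HSPD1 and HSPE1, the mitochondrial chaperonin and its lid, fell at all 3 times against 0 min, with log2 fold changes of -2.36 at 5 min and -2.49 at 30 min for HSPD1 and of -1.61 and -2.72 for HSPE1. HSPE1 also fell at 30 min against 5 min (-1.11, adjusted p = 0.000344). Of the 13 cytosolic Hsp70, Hsp90 and cochaperone genes, 10 fell at 5 min, 12 at 15 min and 8 at 30 min against 0 min. At 30 min 1 was called higher (DNAJB1, named after its values were seen, at 0.99 with adjusted p = 0.0131 by edgeR and 0.13 by DESeq2). Of all genes tested with TMM scaling, 26%, 24.6% and 23.8% were lower at the 3 times, and 32.1% were higher at 30 min. With total counts 6 of the 13 were lower at each time, and 1 was higher at 5 min and 3 at 30 min. With this scaling 13.9%, 12.5% and 12.8% of all genes were lower at 5, 15 and 30 min, and 42.7% and 53.9% were higher at 5 and 30 min. HSP90AA1, a cytosolic Hsp90, had a log2 fold change of -1.95 at 5 min and -2.17 at 30 min, close to the TRiC medians, while HSPA8, the constitutive Hsp70, had -2.97 and -1.48 and rose at 30 min against 5 min by 1.49 (adjusted p = 1.53e-06). Of these 13 genes 4 rose and 1 fell at 30 min against 5 min, where 5.88% of all genes were higher and 6.52% lower. Of the chaperonin-like genes that help build the BBSome, MKKS fell at 5 and 30 min against 0 min (-1.65 and -2.35), and BBS10 at 5 min (-1.68; at 30 min 0.47, adjusted p = 0.415). BBS10 had few counts, 21 and 9 at 0 min and 5 and 9 at 5 min. With total counts it was not called at 5 min (-0.96, adjusted p = 0.171). CCT6B, with 2 and 5 counts at 0 min, did not pass (1.36 at 5 min, adjusted p = 0.161) and BBS12 had too few counts to be tested. The heat shock factor HSF2 rose at 5 min by 0.97. HSF1, with 16 and 6 counts at 0 min, did not pass at any time against 0 min (-1.09 at 5 min, adjusted p = 0.251). Over all these lists, 6 calls against 0 min changed sign with total counts and none with RLE or DESeq2.

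**Figure D5:**
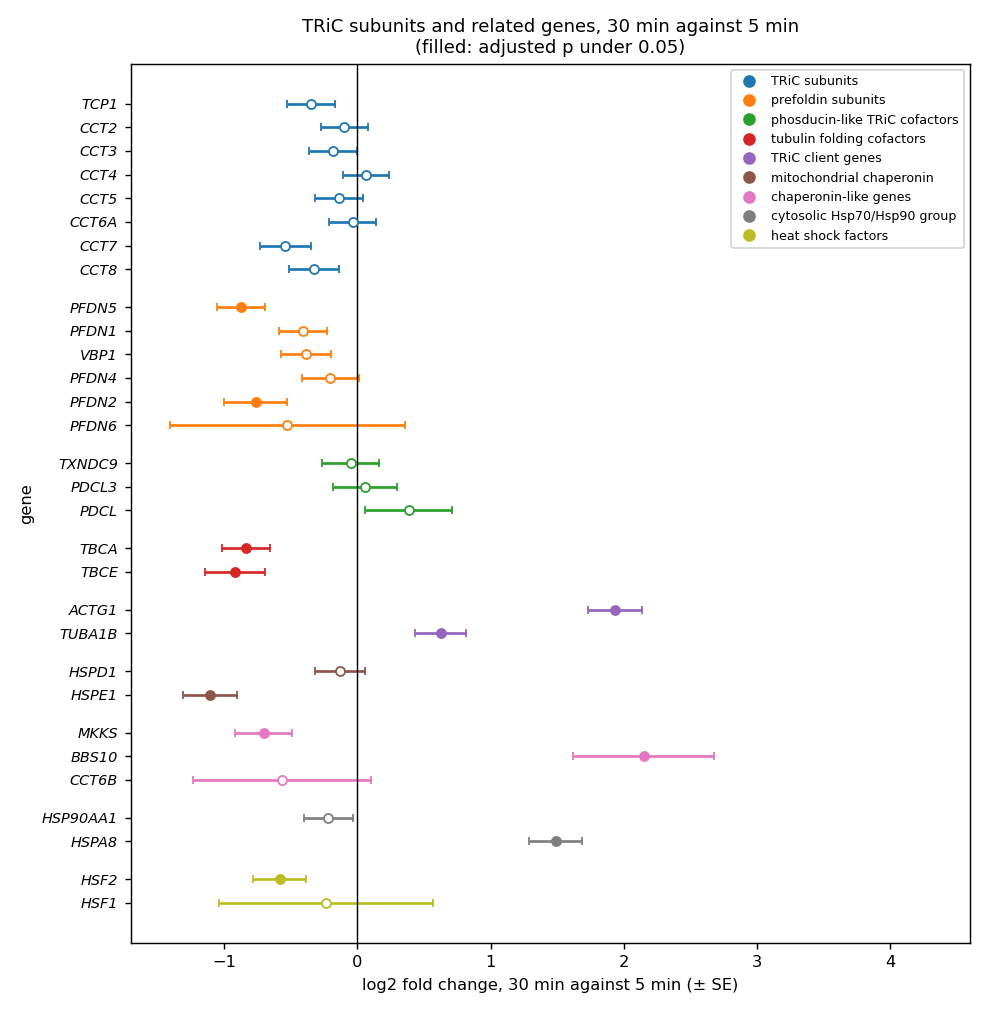
Log2 fold change at 30 min against 5 min (points, bars SE from the edgeR fit, n = 2 cultures per time) of the TRiC subunits and of named genes of related lists, filled where the adjusted p is under 0.05. The 8 subunits lie between -0.54 and 0.06 with 0 called, ACTG1 and HSPA8 lie at 1.94 and 1.49 and HSPE1 at -1.11.

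The genes whose pattern over the 8 cultures was most like the mean of the subunits were ENO1 (Pearson r = 0.999 on log2 TMM-scaled CPM), RPL6, RAN, NACA and NPM1 (r = 0.997 each). They were a glycolytic enzyme, a ribosomal protein, the GTPase of nuclear transport, a nascent chain-binding protein and a nucleolar protein. Such likeness was common: 874 of 8712 genes screened (10%) had r above 0.95, and the points share their cultures, depth and the step after 0 min. Within the 6 later cultures alone r was 0.933 for ENO1 and 0.977 for NACA. Each subunit correlated with the mean of the other 7 at r of 0.982 to 0.997 over 8 cultures, except CCT4 (0.849). Within the 6 later cultures r was 0.807 to 0.964 for 6 subunits, -0.40 for CCT4 and -0.16 for CCT6A.

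The subunit genes lie on 7 chromosomes and CCT4 and CCT7 share chromosome 2. Their main transcripts have 11 to 16 exons, and the genes span 11252 bases (TCP1) to 29498 bases (CCT3) in GENCODE release 29. Several start close to a gene on the other strand, and these neighbours did not all move alike. MRPL18, a mitochondrial ribosomal protein gene starting 63 bases from TCP1, fell with it at 5 min (-1.62, adjusted p = 6.43e-09), and FAM173B, 24 bases from CCT5, fell too (-2.69, adjusted p = 1.56e-05). PSPH, a serine synthesis gene 26 bases from CCT6A, rose at 5 min (1.44, adjusted p = 0.037) while CCT6A fell. PSPH had few counts, 7 and 5 at 0 min and 28 and 19 at 5 min, and was not called at 30 min (1.08, adjusted p = 0.11). COMMD1, 80 bases from CCT4, rose at 5 min (0.59, adjusted p = 0.0209) and was at -0.04 at 30 min (adjusted p = 0.892). By DESeq2 neither PSPH (adjusted p = 0.101) nor COMMD1 (adjusted p = 0.0856) passed at 5 min. TSACC, which overlaps CCT3, rose at 5 min (1.04) and ACAT2, which overlaps TCP1, fell (-1.23). The labels do not state which strand was counted, so reads of the overlapping pairs CCT4 and COMMD1, CCT3 and TSACC, and TCP1 and ACAT2 cannot be told apart. TCP1 and CCT6A also hold snoRNA genes in their introns. GENCODE lists 13 pseudogenes of 6 of the subunits, all but CCT2 and CCT3, and reads shared with these copies could be counted under either.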

How the data were processed

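The authors deposited integer counts for every gene and library in a single table. STAR and hg19 are the aligner and build in the submitters' processing notes (STAR version: not given in the sources used here). No label states if counts are of reads or molecules, or which strand was counted. Per the labels, growth followed a transient transcriptome sequencing method and library making a single-cell tagged reverse transcription method. The 32 columns were matched to samples by barcode. Tagmentation numbers of 4 libraries (culture 2, 0 min) differ between header and labels, with no effect on the sums used.

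The 4 libraries of a culture were added up. Libraries of the same cDNA agreed more closely than counting noise allows in all 16 pairs (chi-square divided by its degrees of freedom, 0.327 to 0.594) and were not treated as replicates. No label says that the biological replicates were separate cultures; p-values measure the spread between these samples. All genes kept by filterByExpr (10439) were fitted together over 8 cultures with edgeR 4.0.16 (TMM, quasi-likelihood F test, 4 residual degrees of freedom, R 4.3.3), with two-sided p adjusted by Benjamini-Hochberg over all genes tested at 0.05. The biological coefficient of variation was 15.3%. Alternatives used DESeq2 1.42.0, other scalings and filters, a replicate block, and left-out cultures; the restriction to 1 cDNA preparation was added after seeing the data. The edgeR steps were also run on simulated data in which few genes changed, in equal numbers up and down. That simulation held no shift like the one behind the TMM factors at 0 min, so it does not bear on the choice of scaling.

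The subunits and the lists were chosen with earlier results of these data known. All 8 subunits are named; from other lists all members (prefoldin, phosducin-like, mitochondrial chaperonin, chaperonin-like) or the 2 most abundant, the 5 genes of most similar pattern (mean CPM of at least 10), and annotated neighbours. PECAM1, meant as an endothelial marker, was not analysed here. Neighbours, distances and pseudogenes come from GENCODE release 29 and promoters from RefSeq (both GRCh38), while the counts were made on hg19.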

Additional observations from a re-analysis of the deposited data

How the results depend on the processing

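Against 0 min, TCP1, CCT2, CCT3, CCT5, CCT6A, CCT7 and CCT8 stayed lower and called in all 18 alternatives. CCT4 turned to 0.247, 0.0658 and 0.454 at 5, 15 and 30 min with total counts, which gave 1 subunit called higher at 30 min, and to 0.0595 and 0.0401 at 5 and 30 min with only cDNA preparation 2; with no filter on low counts it lost its call at 5 and 30 min (-0.45 and -0.31). The cause was not tested. The median of the 8 against 0 min was -1.09, -1.03 and -1.17 at 5, 15 and 30 min with total counts and -2.23 at 30 min with RLE, whose median over all genes was 0.04, 0.09 and 0.18.

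At 30 min against 15 min the count called lower was 0 with edgeR and TMM, 2 with DESeq2, 1 with only cDNA preparation 2, and 0 to 2 when cultures were left out (2 without culture 1 at 15 min, CCT7 and CCT8). At 30 min against 5 min it was 1 with RLE, 2 with DESeq2, 1 with only the cultures compared, and 0 to 1 when cultures were left out (CCT7, without either culture at 0 min or at 15 min).

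Cultures with the same replicate number did not deviate together (r between times -0.03 to 0.08 over 6 pairs), so the numbers do not pair the samples; with the replicate number as a block 8 subunits were called lower at each time against 0 min and 0 in the other comparisons. CCT6A and CCT4 had the lowest counts in a culture, 147 and 228, and TCP1 and CCT2 went down to 258 and 250. The SE at 5 min against 0 min (edgeR, TMM) was 0.177 for CCT4, 0.180 for CCT6A, 0.178 for TCP1 and 0.193 for CCT7. The part of counting error in the CCT4 result was not tested.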
